A study of Mus musculus with 47 samples.

Results

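The heterogeneous nuclear ribonucleoprotein (hnRNP) genes described here are Hnrnpa0, Hnrnpa1, Hnrnpa2b1, Hnrnpa3, Hnrnpab, Hnrnpc, Hnrnpd, Hnrnpf, Hnrnpk and Hnrnpu. They were taken by name, through the RefSeq mRNA names of the deposited 3′ UTR intervals, a rule that uses no measured value, although the family was proposed with earlier results of these data known. These 10 genes have 16 distinct 3′ UTR intervals, of 21788 distinct mRNA intervals for 18850 genes in all. For each gene the interval with most reads over all libraries, called the lead interval here, carries the values, and the other intervals are described on their own.

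The data are 47 SLAM-seq libraries of wild-type P19 cells, a mouse embryonal carcinoma line, of which 24 are of undifferentiated cells (D0) and 23 of cells at day 6 of neuronal differentiation in medium with retinoic acid (D6). In SLAM-seq, 4-thiouridine (4sU) enters new RNA and is then read as a T>C conversion, so that the conversion rate, the conversions per covered T position, follows labeled RNA. In the anabolic assay, uptake of 4sU was followed from unlabeled cells, and in the catabolic assay, cells labeled for 15 h were followed after 4sU was withdrawn, here called the chase. One passage of the methods gives a shorter labeling time before the chase, and 15 h, as in the labels, is used for all values here. D0 cells received 20 µM and D6 cells 500 µM 4sU, so that dose and state cannot be told apart in any value of labeled cells. Both assays had 4 time points, at 0, 3, 6 and 9 h in the methods of the study and at 0, 1, 3 and 9 h in the sample labels. Only 0 and 9 h are shared, and the other points are called the second and the third time point. Each of the 16 groups had 3 libraries, except the third time point of the chase at D6, which had 2. The sources speak of biological replicates but do not say that these libraries came from separate cultures, so that the p-values measure the spread between libraries. In bulk RNA, fewer cells of a type and less of an RNA per cell cannot be told apart.

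Proteins of the hnRNP family bind nascent transcripts in the nucleus and take part in packaging, splicing, export, localization and turnover of mRNA. Most carry RNA recognition motifs, hnRNP K has KH domains, and hnRNP U binds both RNA and nuclear scaffold DNA. Many of them act in the splicing programs of neurons, and all are found in most cell types.

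The libraries were made from the 3′ ends of transcripts. Where reads lie within an interval is not given in the counts. The last 30 bases of the lead interval are shown for the well-covered members whose interval could be matched to a GENCODE transcript of the same build, with the polyadenylation signal in capitals, because they show the annotated end of the interval that was counted. The Hnrnpa0 interval lies at chr13:58125879-58127395 on the minus strand (mm10), that of Hnrnpab at chr11:51600100-51601407, that of Hnrnpc at chr14:52073380-52075079, that of Hnrnpd at chr5:99955935-99961333 and that of Hnrnpu at chr1:178328300-178329353, all on the minus strand.
Hnrnpa0: ggatatcacaAATAAAgaattcaattctta
Hnrnpab: gttttcttaAATAAAttgagggagaccttg
Hnrnpc: tttgagAATAAAgactgtggttctgtccct
Hnrnpd: ttaacaATTAAActttccagcactcatgca
Hnrnpu: cgtttgtttgcAATAAAaagaattcatttt
The search was for AATAAA first and then ATTAAA, in the sense direction. Of the 8 members with a matched lead interval, Hnrnpa0, Hnrnpa1, Hnrnpab, Hnrnpc, Hnrnpf and Hnrnpu carried AATAAA and Hnrnpa3 and Hnrnpd carried ATTAAA in this window. Among 16435 such windows of all mRNA intervals, 53.5% held AATAAA, a further 13% ATTAAA and 33.5% neither. The lead intervals of Hnrnpa2b1 and Hnrnpk were not matched.

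Hnrnpd encodes AUF1, a protein that binds AU-rich elements in 3′ UTRs and takes part in mRNA turnover, so the intervals were also searched for TATTTAT, in the sense direction. The members with a match were Hnrnpa1 (chr15:103244696-103244702) and Hnrnpc (chr14:52073457-52073463), with 1 each, shown with the matched letters in capitals.
Hnrnpa1 site: ttggaattTATTTATggttgctt
Hnrnpc site: gggtattgTATTTATtcaggtga
Of 13122 matched mRNA intervals of at least 200 bases, 26.9% held the same letters.

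The number of reads set how well each member was measured. Of the members, 6 were well covered. The mean number of covered T positions per library on the lead interval was 202943 for Hnrnpa0, 180170 for Hnrnpab, 152031 for Hnrnpu, 88038 for Hnrnpd, 76764 for Hnrnpc and 64043 for Hnrnpk. It was 10082 for Hnrnpa2b1, 8336 for Hnrnpa3, 3893 for Hnrnpa1 and 1864 for Hnrnpf. The last of these had a median of 62.5 reads at D0 and 1 read at D6, with 0 reads in 2 of 24 D0 and 11 of 23 D6 libraries, so that it passed the filters on low values through D0. The libraries held 1421076 to 11297884 reads on mRNA 3′ UTRs (median 5561985), with a median of 6914465 at D0 and 3582152 at D6. The share of library reads that fell on these intervals was 28.9 to 45.9% at D0 and 14.9 to 32.4% at D6. Reads carry no molecular identifiers, and reads mapped to several places were not counted. Markers followed the labels. Summed over 8 genes, neuronal markers lay at 924 to 1156 RPM (reads per 1000000 reads on mRNA 3′ UTRs) at D0 and at 10394 to 11645 at D6, and 7 of 8 rose without 4sU. The 8 markers of undifferentiated cells lay at 412 to 509 and at 1.64 to 2.59, and all 3 of the 8 that could be tested fell. Glial markers summed to 4.54 to 45.8 and 23.6 to 48.5. Without 4sU, Aqp4, Olig1, Olig2 and Sox10 were at 0 in both states and Gfap at D6. Mbp, the 1 glial marker tested, had a log2 of 0.41 (SE 0.85, edgeR adjusted p = 0.84). The sum over 8 mesoderm and endoderm markers was 95.6 to 153 at D0 and 9.23 to 14 at D6, where Acta2 fell. In the test over all 47 libraries described below, Mbp was called higher (log2 0.89, SE 0.32, edgeR adjusted p = 0.0189). There, 3 of 4 mesoderm and endoderm markers tested were called lower and 0 higher. The glial sum at D6 then ran from 0 to 141. The part of these other cell types in the results on hnRNP genes was not tested.

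**Figure D1:**
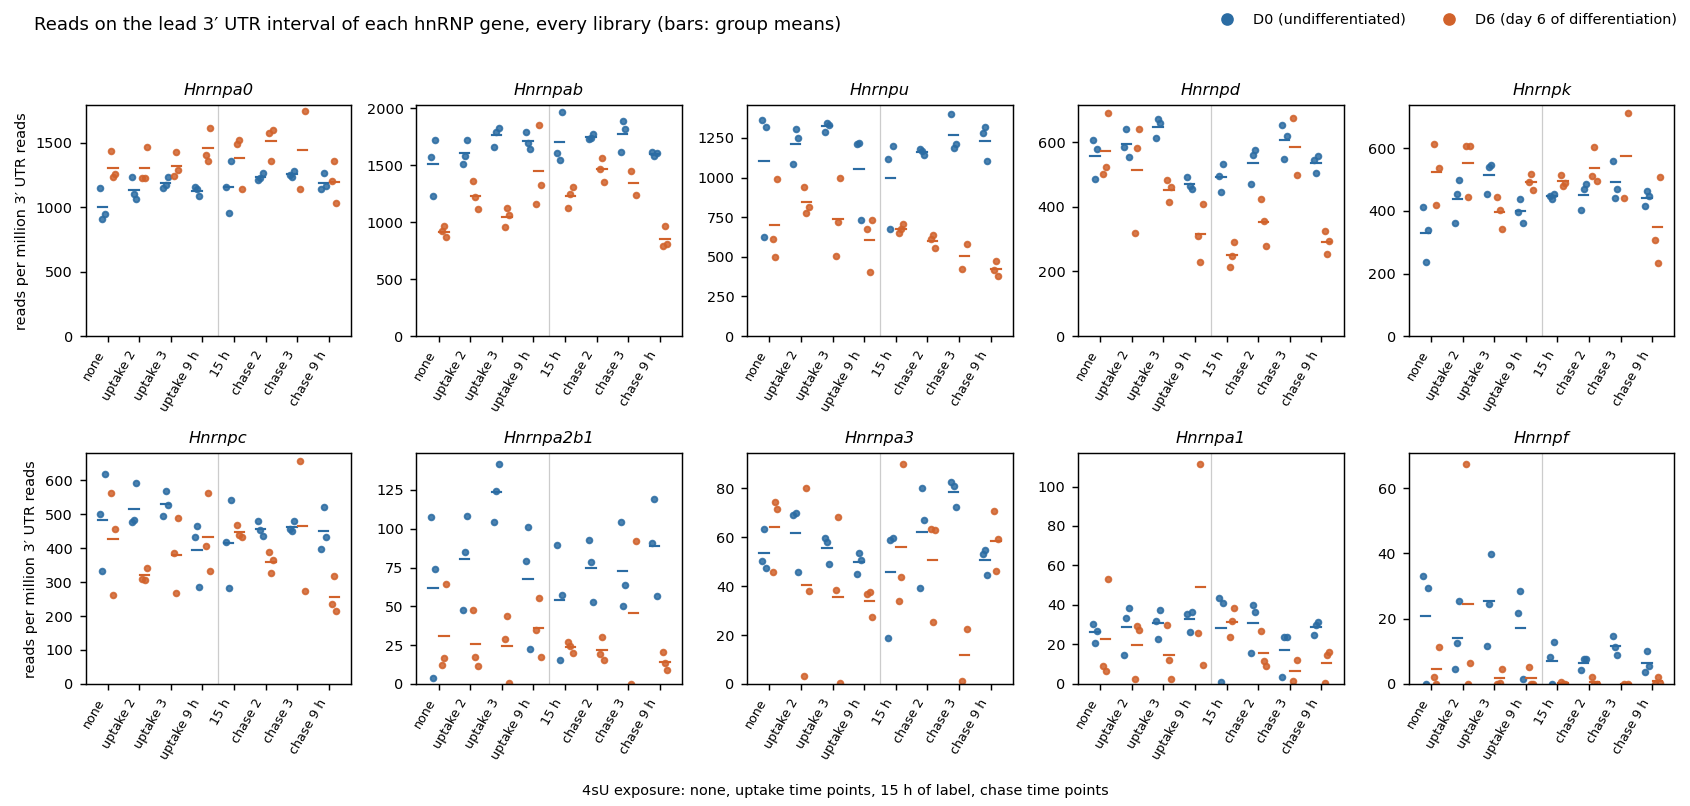
RPM (reads per 1000000 reads on mRNA 3′ UTRs) on the lead interval of each member (linear axes from 0) in all 47 libraries, by 4sU exposure on the x axis, with points for libraries and bars for group means. Hnrnpu lies mostly lower at D6 (median 635) than at D0 (median 1211), Hnrnpab is lower at D6 in most conditions, and Hnrnpa0 is mostly higher.

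Without 4sU, the summed reads of the 10 lead intervals were 3902, 5699 and 5817 RPM at D0 and 4001 to 4996 at D6. The groups overlap through the lowest D0 library, replicate 56, and the other 2 D0 libraries lay above all 3 D6 libraries. The edgeR quasi-likelihood test over 11075 intervals called 0 of the 10 members at an adjusted p under 0.05, where 7.04% of all intervals were called higher and 5.16% lower. At an unadjusted p under 0.05, 2727 of all intervals and, of the members, Hnrnpab and Hnrnpk passed. The median log2 of D6 over D0 was -0.14 for the members and -0.04 for all intervals tested. With 1 library left out, the median of the members ran from -0.40 (D6 replicate 39) to 0.11 (D6 replicate 38). That of all intervals ran from -0.09 (D6 replicate 39) to 0.04 (D0 replicate 55). DESeq2 called Hnrnpab and Hnrnpk (10.6% of intervals higher, 8.48% lower), and edgeR with upper quartile scaling called Hnrnpab (6.79% higher, 5.43% lower).

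Among the A and B type proteins, which shuttle between nucleus and cytoplasm and act in splicing, Hnrnpa0 had 1147, 905 and 947 RPM in the 3 unlabeled D0 libraries and 1431, 1235 and 1253 at D6. The groups did not overlap, and the log2 of D6 over D0 was 0.42 (SE 0.21, adjusted p = 0.25). Hnrnpab, which encodes a protein of RNA transport and transcription, had 1568, 1230 and 1721 at D0 and 919, 963 and 868 at D6. All 3 D6 libraries lay below all 3 D0 libraries, with a log2 of -0.67 (SE 0.21, adjusted p = 0.0627 with edgeR and 0.00924 with DESeq2). Replicate 56 had the lowest RPM of the 3 D0 libraries for Hnrnpab and Hnrnpu, so that its omission widens the gap for Hnrnpab. Without it, the adjusted p for Hnrnpab was 0.0247 with edgeR, where 7.54% of 11863 intervals were called higher and 4.67% lower. Hnrnpd had 605, 484 and 580 at D0 and 502, 522 and 689 at D6, which overlap (log2 0.08, SE 0.24, adjusted p = 0.897).

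Hnrnpk, whose KH domains bind C-rich RNA and DNA, had 413, 235 and 338 RPM at D0 and 616, 420 and 537 at D6. The groups did not overlap, and the log2 was 0.72 (SE 0.27, adjusted p = 0.112 with edgeR and 0.0344 with DESeq2). Without replicate 56, the lowest D0 library, it was 0.58 (SE 0.24, adjusted p = 0.158 with edgeR). Over 12173 intervals with a mean of at least 10 reads, the unlabeled libraries of the 2 states were separate and higher at D6 for 16.7% and separate and lower for 16.4%, beside Hnrnpa0 and Hnrnpk higher and Hnrnpab lower among the members by lead interval. Hnrnpu, which encodes a nuclear scaffold and chromatin protein, had 1361, 626 and 1318 at D0 and 612, 502 and 993 at D6. One D0 library lay within the D6 values, and the log2 was -0.59 (SE 0.32, adjusted p = 0.302). Without that library, replicate 56, it was -0.83 (SE 0.27, adjusted p = 0.0735). Replicate 56 also had one of the 2 lowest shares of reads on 3′ UTRs at D0, 30.7%, and what that share did to Hnrnpu was not tested. Hnrnpc, which binds uridine tracts of nascent transcripts, had 501, 333 and 617 at D0 and 563, 262 and 456 at D6, with overlapping groups (log2 -0.14, SE 0.31).

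The other 4 members were too sparse for the size of their differences to be read from 3 libraries each. Hnrnpa2b1, which acts in splicing and in the transport of mRNA along neuronal processes, had 108, 3.97 and 74.0 RPM at D0 and 12.3, 16.4 and 64.6 at D6 (log2 -0.89, SE 0.99). Hnrnpa1, a splicing repressor, had 30.5, 21 and 27 at D0 and 9.33, 6.34 and 53.2 at D6 (log2 -0.15, SE 0.96). In both genes the states overlap. Hnrnpa3, a close relative, had 50.2, 63.6 and 47.4 at D0 and 46.0, 74.4 and 71.7 at D6 (log2 0.27, SE 0.48). Hnrnpf, which binds G tracts near splice sites, had 33, 0 and 29.4 at D0 and 2.05, 0 and 11.3 at D6 (log2 -2.11, SE 2.02).

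Over all 47 libraries, with state tested beside assay and time point, 2 members rose and 4 fell at D6, leaving aside Hnrnpf, which passed the filter on low counts through D0, and edgeR called 20.4% of 13454 intervals higher and 28% lower. The median log2 was -0.40 over these 9 members and -0.24 over all intervals, and more intervals fell than rose in these libraries. No member was fully separate between the 24 D0 and the 23 D6 libraries, as were 1.85% of 12244 intervals that lay higher and 2.4% that lay lower. Most of these libraries had seen 4sU at a dose that differed with the state, and the part of the dose was not tested.

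Hnrnpu fell most among the well-covered members. Its RPM ran from 626 to 1404 (median 1211) in the D0 libraries and from 379 to 996 (median 635) in the D6 libraries, with a log2 of -0.80 (SE 0.09, adjusted p = 8.34e-11). The fall was called in the anabolic libraries alone (-0.60, SE 0.14, adjusted p = 7.97e-04) and in the catabolic libraries alone (-0.97, SE 0.11, adjusted p = 7.18e-09). Leaving out the 2 D0 libraries with the lowest share of reads on 3′ UTRs, replicates 26 and 56, left it at -0.80 (SE 0.09). These splits by assay and this omission were added once the data were known. In the anabolic libraries, 17% of 12721 intervals were called higher and 19.5% lower. In the catabolic libraries, 14.7% of 12760 intervals were called higher and 17.1% lower. These shares hold beside each call by assay given below.

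Hnrnpab ran from 1230 to 1964 RPM (median 1676) at D0 and from 789 to 1853 (median 1158) at D6. The ranges overlap, and the log2 was -0.44 (SE 0.07, adjusted p = 8.99e-08). It was -0.43 in the anabolic and -0.40 in the catabolic libraries. In GENCODE annotation, 49.9% of the 50-base windows of its 3′ UTR also occur, on the opposite strand, in transcripts of Phykpl. Whether reads were assigned by strand is not given in the sources used here, so that reads of the pair cannot be told apart over that stretch.

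Hnrnpa0 ran from 905 to 1358 RPM (median 1159) at D0 and from 1029 to 1746 (median 1358) at D6. It rose with a log2 of 0.31 (SE 0.06, adjusted p = 1.67e-05), and with 0.36 in the anabolic and 0.30 in the catabolic libraries. Hnrnpk rose by less, from a median of 447 to a median of 493 (log2 0.23, SE 0.09, adjusted p = 0.0395). Its rise was called in the anabolic libraries (0.32, adjusted p = 0.0458), and in the catabolic libraries the log2 was 0.17 (SE 0.14, adjusted p = 0.355).

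Hnrnpd had a median of 555 RPM at D0 and 407 at D6, and it fell with a log2 of -0.40 (SE 0.10, adjusted p = 5.2e-04). The sign is the opposite of that without 4sU (0.08). In the catabolic libraries the log2 was -0.53 (SE 0.15, adjusted p = 0.00421) and in the anabolic libraries -0.23 (SE 0.13, adjusted p = 0.169). Of the sparse members, Hnrnpa2b1 fell (median 81.9 and 19.97 RPM, log2 -1.47, SE 0.34, adjusted p = 2.7e-04), and it was called in both assays. Hnrnpf had a median of 10.7 RPM at D0 and 0.14 at D6, and since it passed the filter through D0, nothing is read from its test. Hnrnpc (-0.20, SE 0.11), Hnrnpa3 (-0.35, SE 0.30) and Hnrnpa1 (-0.51, SE 0.40) did not pass the test.

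**Figure D2:**
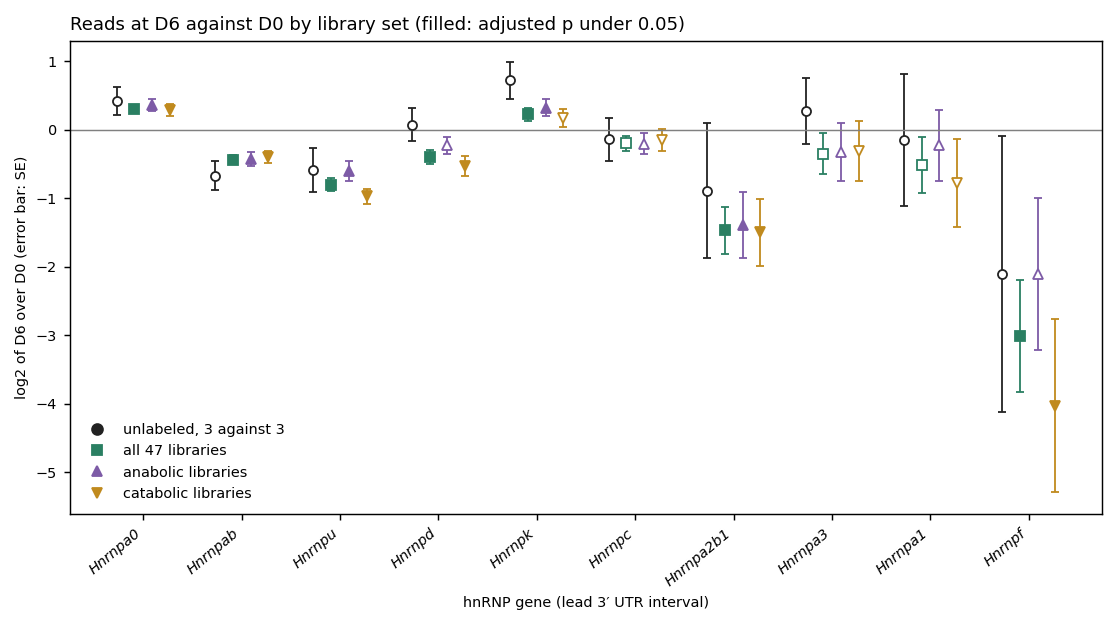
The log2 of D6 over D0 in reads on the lead interval of each member, with its SE, in the unlabeled libraries (circles), all 47 (squares), the anabolic (upward triangles) and the catabolic libraries (downward triangles). Filled symbols passed an adjusted p under 0.05, from which nothing is read for Hnrnpf, which passed the filter on low counts through D0. The value for Hnrnpd is 0.08 in the unlabeled libraries and -0.53 in the catabolic libraries, while that for Hnrnpa0 is above 0 and those for Hnrnpab and Hnrnpu are below 0 in every set shown.

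Other genes of the family, or bound to the same nuclear particles, were set beside the members. Of 19 such genes 17 could be tested without 4sU and 0 were called (7.04% of all intervals higher, 5.16% lower), with Hnrnph3 (log2 1.27, adjusted p = 0.0825), Syncrip (0.51) and Rbmx (0.45) at the smallest p above 0, and Hnrnpdl (-0.78, adjusted p = 0.0979) and Pcbp1 (-0.69, adjusted p = 0.199) among the smallest p below it. Over all 47 libraries, 1 of 19 rose (Hnrnph3, 1.03) and 6 fell, Pcbp1 among them (-0.79), where 20.4% of all intervals were called higher and 28% lower. The value for Hnrnpdl was then -0.24 (SE 0.11, adjusted p = 0.0717), that for Syncrip 0.11 (SE 0.12) and that for Rbmx 0.30 (SE 0.17). Their median log2 was -0.27, beside -0.40 for the 9 members other than Hnrnpf and -0.24 for all intervals.

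Reads of the members were next compared within a state between cells labeled for 15 h and unlabeled cells. At D0, edgeR called 0 of 10 members and 0 of 10676 intervals (0% called, with 210 at an unadjusted p under 0.05, and 2 intervals called by DESeq2). At D6, it called 0 of 9 members and 1 of 10743 intervals (0.00931% called, with 606 at an unadjusted p under 0.05). Of the other hnRNP genes, 17 could be tested at D6, and 1 was called lower and 0 higher. The member nearest to the threshold was Hnrnpd. It had 502, 522 and 689 RPM in the unlabeled D6 libraries and 212, 247 and 292 after 15 h of 4sU, and all 3 labeled libraries lay below all 3 unlabeled ones, as for 5.49% of 11723 intervals with a mean of at least 10 reads (7.66% the other way). The log2 was -1.27 (SE 0.22, adjusted p = 0.058 with edgeR). DESeq2, with 0.652% of intervals called higher and 1.02% lower, and edgeR without a filter on low counts, with 0.0363% and 0.254%, both called Hnrnpd lower.

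The other D6 libraries placed these values. During the chase, Hnrnpd had 425, 356 and 278 RPM at the second time point, 675 and 498 at the third and 326, 254 and 295 at 9 h. During uptake it had 319, 582 and 641, then 483, 414 and 462, and 309, 229 and 407 at 9 h. All libraries of the third time point and of 9 h of uptake, of 15 h of label, and of the second time point and of 9 h of chase lay below the lowest unlabeled library. Of the third time point of the chase, 1 library lay within the unlabeled range and the other, at 498, just below it. At D0 the log2 of 15 h against no 4sU was -0.17 (SE 0.24) for Hnrnpd. The difference between the states was not tested, and the dose was 20 µM at D0 and 500 µM at D6.

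After 15 h in 4sU, the conversion rate of the 6 well-covered members was 0.989 to 2.06% in the D0 and 3.42 to 6.15% in the D6 libraries, beside means of 1.42% and 4.65% over all mRNA intervals. Whether a member differed from the average 3′ UTR at this point was not tested. Hnrnpa0 had 1.57, 1.79 and 1.88% at D0, each above the rate of its library, and 4.56, 5.91 and 4.48% at D6. Hnrnpab had 2.06, 1.53 and 1.10% at D0 and 6.15, 6.12 and 4.68% at D6. In both genes, as in all 6 well-covered members, each D6 library was above each D0 library, as for 56.9% of 7756 intervals that averaged 1000 or more covered T positions (0.735% the other way).

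Hnrnpu had 1.45, 1.94 and 1.63% at D0 and 5.40, 5.57 and 4.46% at D6. Hnrnpc had 1.55, 1.04 and 1.76% at D0 and 4.59, 4.46 and 5.01% at D6. Hnrnpk had 1.2, 1.6 and 1.19% at D0 and 5.39, 5.0 and 3.42% at D6. Hnrnpd, the lowest of the 6 at D6, had 0.989, 1.70 and 1.91% at D0 and 4.21, 5.18 and 3.52% at D6. Tested as conversions per covered T position, these 6 members were higher at D6, by a log2 of 1.49 (Hnrnpd) to 1.85 (Hnrnpab), where 8.19% of 9820 intervals were called higher and 0.0916% lower (edgeR). Relative to the rate of all 3′ UTRs in the same library, 0 of 10 members were called (0% of intervals higher, 0.0815% lower), and the log2 of D6 over D0 lay between -0.22 (Hnrnpd, SE 0.34) and 0.14 (Hnrnpab, SE 0.25) among the 6. The sparse members spread more. Hnrnpa1 had 0 to 1.19% at D0 and 3.27 to 3.66% at D6, Hnrnpa2b1 had 0.686 to 1.24% and 2.93 to 7.38%, and Hnrnpa3 had 0.959 to 2.92% and 2.10 to 6.93%. Hnrnpf had reads in 2 of these D0 libraries and 1 D6 library.

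Without 4sU the rate differed between members. At D0 it was 0.217, 0.408 and 0.241% for Hnrnpa0, which was 1.37, 1.97 and 1.70 times the rate of all 3′ UTRs in the same libraries. For Hnrnpk it was 0.194, 0.389 and 0.139%, and for Hnrnpab 0.00846, 0.0649 and 0.0304%. The background thus came to 16.5% of the rate after 15 h for Hnrnpa0 at D0, to 18.1% for Hnrnpk and to 2.21% for Hnrnpab. At D6 it was 6.24% for Hnrnpa0, 2.69% for Hnrnpk and 1.37% for Hnrnpab. Background was not subtracted unless stated.

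**Figure D3:**
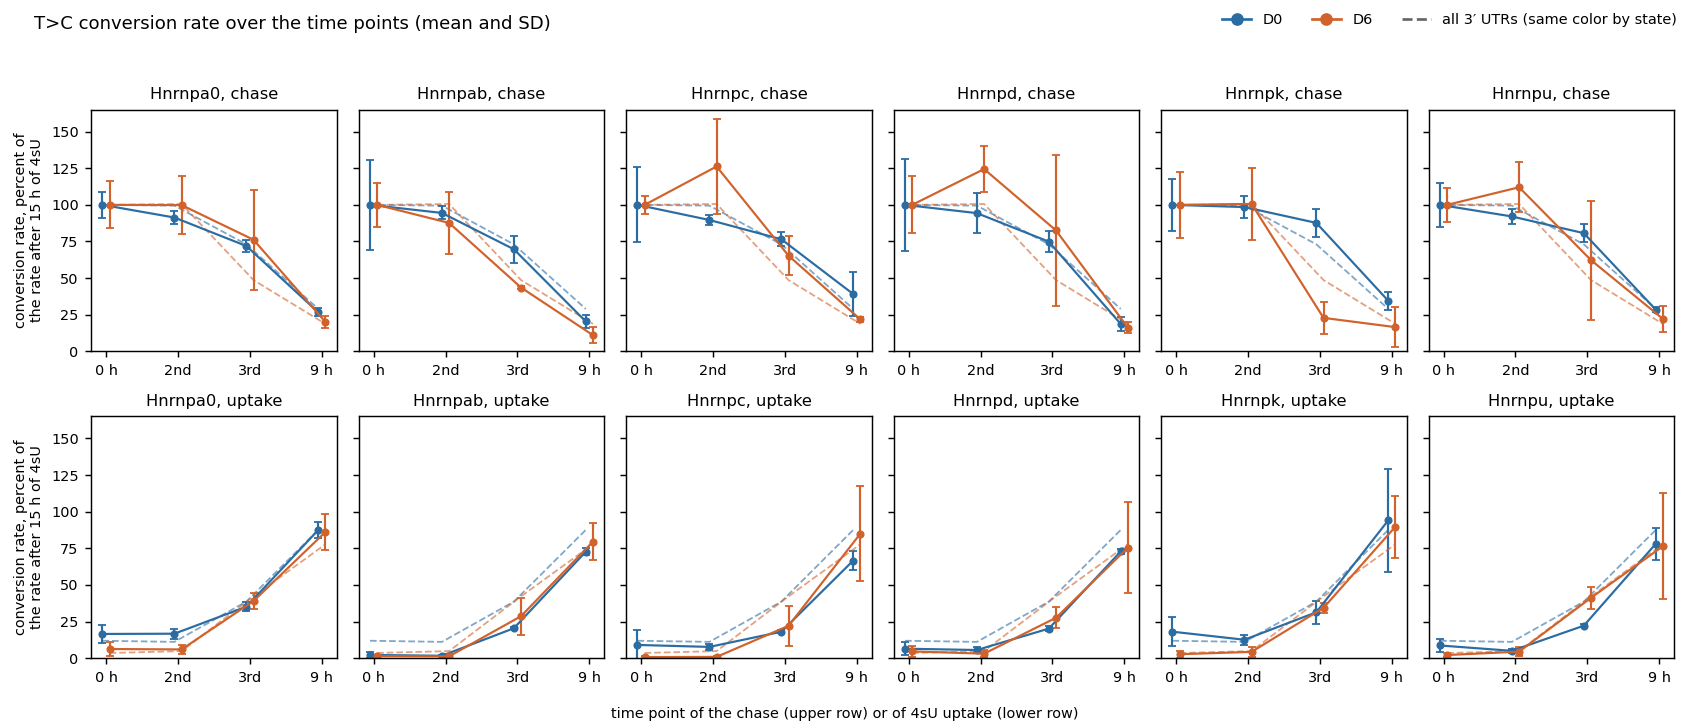
Conversion rate as percent of the mean rate of the same gene after 15 h in 4sU (linear axis from 0), at the 4 time points of the chase (upper row) and of uptake (lower row), with the mean and SD of 3 libraries, or of 2 at the third time point of the chase at D6. Dashed lines give all 3′ UTRs together, and background, which differs between genes, was not subtracted. Hnrnpab and Hnrnpd end the chase below the dashed line in both states, and in uptake at D0 Hnrnpab, Hnrnpc, Hnrnpd and Hnrnpu lie at 18 to 22.2% at the third time point, below the line at 38.6%.

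The label left after 9 h of chase is the measure of decay that needs no choice of hours. All 3′ UTRs together kept 29% ± 1.2 (SD, n = 3) of the 15 h rate at D0 and 18.7% ± 1.4 (SD, n = 3) at D6. Hnrnpab kept 20.4% ± 4.4 and 11.1% ± 5.3, and Hnrnpd kept 18.7% ± 4.6 and 16.1% ± 3.6. Hnrnpa0 kept 26.6% ± 2.8 and 20.01% ± 4.2, and Hnrnpu kept 28.5% ± 1.8 and 22.1% ± 8.6. Hnrnpk kept 34.5% ± 6.0 and 16.5% ± 13.6, and Hnrnpc kept 39.1% ± 15.3 and 21.8% ± 1.8. The mean was lower at D6 in all 6 members, as it was for all 3′ UTRs. In order of label left at D0, without subtraction of background, Hnrnpd and Hnrnpab were lowest and Hnrnpk and Hnrnpc highest, and neighbours in that order differed by less than the larger of their SDs, except Hnrnpab from Hnrnpa0 and Hnrnpu from Hnrnpk. The order changed when the unlabeled rate of the same gene and state was subtracted, a step added once the data were known. At D0 Hnrnpa0 was then lowest, at 12.1% ± 3.4 (SD of the 3 libraries at 9 h), followed by Hnrnpd at 13.04% ± 5.0, Hnrnpab at 18.6% ± 4.5, Hnrnpk at 20.1% ± 7.3, Hnrnpu at 21.7% ± 2.0 and Hnrnpc at 33.05% ± 16.8, beside 19.4% ± 1.4 for all 3′ UTRs. At D6 it was 9.82% ± 5.3 for Hnrnpab, 12.05% ± 3.8 for Hnrnpd, 14.2% ± 14 for Hnrnpk, 14.7% ± 4.5 for Hnrnpa0, 20.4% ± 8.8 for Hnrnpu and 21.2% ± 1.8 for Hnrnpc, beside 15.8% ± 1.4. The mean for Hnrnpa0 was then higher at D6 than at D0, and those of the other 5 were lower.

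Tested as conversions per covered T position, the 6 well-covered members lost label in both states. At D0 the log2 of 9 h over 0 h was -2.29 for Hnrnpab, -2.42 for Hnrnpd, -1.91 for Hnrnpa0, -1.81 for Hnrnpu, -1.53 for Hnrnpk and -1.36 for Hnrnpc (edgeR, 30% of 9820 intervals called lower and 0.183% higher). Hnrnpf, with 0 conversions in all 3 D0 libraries at 9 h and at most 2093 covered T positions in each, was also called there. At D6 it was -3.18 for Hnrnpab, -2.63 for Hnrnpd, -2.59 for Hnrnpk, -2.32 for Hnrnpa0, -2.20 for Hnrnpc and -2.17 for Hnrnpu (44.8% called lower). These shares come from intervals of unlike coverage. Of the 9820 intervals, 3126 averaged at least 10000 covered T positions, while the 6 members averaged at least 64043. Shares at the coverage of the members were not computed.

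Relative to all 3′ UTRs in the same library, 0 of 10 members were called at D0 (1.07% of intervals higher, 2.11% lower) and 0 of 10 at D6 (1.1% higher, 1.73% lower). The median log2 was -0.07 for the members and -0.60 for all intervals at D0, and -0.04 and -0.64 at D6. Most of the intervals tested had lower coverage than the 6 well-covered members. The part of coverage in the distance between these medians was not tested. Hnrnpab lay lowest of the 6 at D6, at -0.77 (SE 0.25, adjusted p = 0.0842), and at -0.51 (SE 0.25, adjusted p = 0.241) at D0. Its D6 libraries had 0.959, 0.388 and 0.528% at 9 h and the first of them lay above the others. Leaving out that library, replicate 16, gave -1.14 (SE 0.26, adjusted p = 0.0107), and leaving out replicate 17 of the same group gave -0.53 (SE 0.25, adjusted p = 0.277). Replicates 14 and 15, the libraries of the third time point, do not enter this contrast. Without either of them, which left 1 library in that group, the log2 for Hnrnpab stayed at -0.77. Hnrnpd was lowest at D0, at -0.64 (SE 0.34, adjusted p = 0.288), and at -0.22 (SE 0.34) at D6. Hnrnpa0, Hnrnpu, Hnrnpk and Hnrnpc lay between -0.18 and 0.43 in both states. With background subtracted, limma could test 938 intervals and 6 members at D0 and called Hnrnpa0 lower, at -0.98 (SE 0.28, adjusted p = 0.0112) in place of -0.12 (SE 0.19), where 14.7% of intervals were called higher and 15.2% lower. Its values for Hnrnpd at D0, -0.90 (SE 0.38, adjusted p = 0.0798), and for Hnrnpk at D6, -2.63 (SE 1.496, adjusted p = 0.258), also lay further below 0. The median was then -0.30 for the 6 members and -0.14 for all 938 intervals at D0, and -0.23 and -0.22 at D6. At D0 this is the reverse of the order above. The test, the intervals and the members changed along with the subtraction, so that the part of each was not tested.

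The loss of label relative to all 3′ UTRs was then compared between the states by a test of the difference itself. It called 0 of 10 members (0.0509% of intervals called in either direction, with 1148 at an unadjusted p under 0.05, and 0 members with DESeq2). The log2 difference, D6 minus D0, was -0.26 (SE 0.35) for Hnrnpab, 0.22 (SE 0.28) for Hnrnpa0, -0.21 (SE 0.46) for Hnrnpc, 0.42 (SE 0.48) for Hnrnpd, -0.44 (SE 0.68) for Hnrnpk and 0.27 (SE 0.40) for Hnrnpu. None was larger than its SE. Not relative to the library, it was -0.88 (SE 0.38, adjusted p = 0.303) for Hnrnpab, and 0 members were called as well.

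In the anabolic assay at D0, Hnrnpab, Hnrnpc, Hnrnpd and Hnrnpu had less label at the third time point than all 3′ UTRs together. They had reached 20.4% ± 0.56, 18% ± 1.1, 20.2% ± 1.6 and 22.2% ± 1.2 of the 15 h rate (SD, n = 3), beside 38.6% ± 1.0 for all 3′ UTRs. The rate of all 3′ UTRs includes its larger background of 11.9%, and this time point was not tested. Hnrnpa0 stood at 35.1% ± 3.1 and Hnrnpk at 31.3% ± 8.0, values that include still larger backgrounds of 16.5% and 18.1%. The background was 2.21% for Hnrnpab, 6.47% for Hnrnpd, 8.66% for Hnrnpu and 9.02% for Hnrnpc. The part of background in the differences between these members was not tested. By 9 h the 6 members had reached 66.6% (Hnrnpc) to 94.1% (Hnrnpk) at D0, where all 3′ UTRs had reached 87.5%.

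At D6, the third time point gave 28.6% ± 12.6 for Hnrnpab, 22.1% ± 13.5 for Hnrnpc, 27.6% ± 7.3 for Hnrnpd and 41.2% ± 7.4 for Hnrnpu, and 42.2% ± 7.5 for all 3′ UTRs. By 9 h the 6 members lay between 75.5% (Hnrnpd) and 89.8% (Hnrnpk), with 77.8% over all 3′ UTRs. The rate at 9 h over that after 15 h, relative to all 3′ UTRs, was called for 0 of 10 members at D0, at D6 and for the difference between the states. Over all intervals 0%, 0.0102% and 0% were called, with 628, 591 and 771 of 9817 at an unadjusted p under 0.05. The largest distance from 0 among the 6 was -0.40 (SE 0.26) for Hnrnpc at D0.

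Half-lives were first fitted with the hours of the methods. Those with R squared over 0.6 were kept. A decay half-life was kept in both states for 1 member, Hnrnpab, at 7.37 h ± 1.75 (SE, 12 libraries) at D0 and 4.95 h ± 1.02 (SE, 11 libraries) at D6. At D0 alone it was 7.95 h ± 1.33 for Hnrnpa0, 9.77 h ± 1.99 for Hnrnpc and 9.00 h ± 1.87 for Hnrnpu. At D6 alone it was 5.02 h ± 1.49 for Hnrnpk. Over all intervals, 14.9% had one at D0 (median 4.67 h) and 17% at D6 (median 3.62 h), and of the 420 with both, 297 (70.7%) were shorter at D6.

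With the hours of the labels, each of the 6 well-covered members gave a decay half-life at D0 and at D6. It was 4.79 h at D0 and 2.95 h at D6 for Hnrnpab, 7.45 h and 2.79 h for Hnrnpk, 6.89 h and 5.47 h for Hnrnpc, 6.06 h and 4.99 h for Hnrnpu, 5.31 h and 5.06 h for Hnrnpa0, and 4.94 h and 5.63 h for Hnrnpd. From 0 and 9 h alone, the pairs were 3.93 and 2.83 h for Hnrnpab, 5.86 and 3.47 h for Hnrnpk, 6.64 and 4.09 h for Hnrnpc, 4.97 and 4.14 h for Hnrnpu, 4.72 and 3.88 h for Hnrnpa0, and 3.72 and 3.42 h for Hnrnpd. Hnrnpab, Hnrnpc, Hnrnpk and Hnrnpu, and Hnrnpa0 too, had the shorter value at D6 with either choice. Hnrnpd did so only with 0 and 9 h. Background was not subtracted in any half-life fit given here. With it subtracted, Hnrnpa0 kept 12.1% ± 3.4 of its label at 9 h at D0 and 14.7% ± 4.5 at D6, the reverse order. The other well-covered members then kept less at D6 than at D0. No test was run on half-lives.

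A synthesis half-life, the time constant of label uptake, was kept in both states for Hnrnpa0 (5.97 h ± 1.12 at D0 and 6.28 h ± 1.23 at D6), Hnrnpab (9.16 h ± 1.94 and 7.72 h ± 1.71) and Hnrnpu (8.20 h ± 1.82 and 6.89 h ± 1.58). At D0 alone it was 9.79 h ± 1.96 for Hnrnpc, 8.91 h ± 1.81 for Hnrnpd, 6.35 h ± 1.24 for Hnrnpa2b1 and 18 h ± 2.26 for Hnrnpa3, and at D6 alone it was 6.39 h ± 1.48 for Hnrnpk. In the 3 members with both, the states differed by less than 1 SE. Over all intervals the median was 7.04 h at D0 and 6.32 h at D6, and 232 of 421 (55.1%) were shorter at D6.

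**Figure D4:**
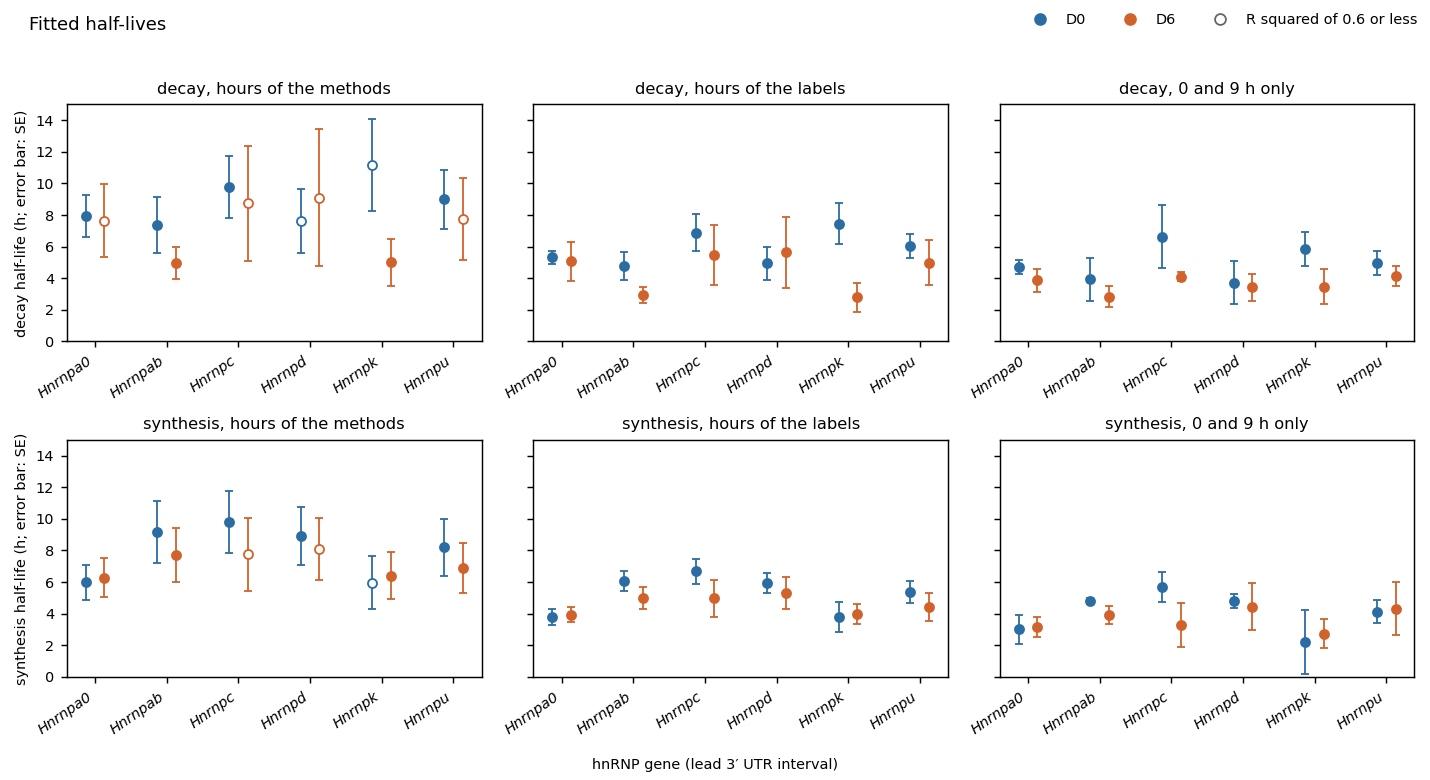
Decay (upper row) and synthesis half-lives (lower row) in hours, with the SE of the fit, for the 6 well-covered members under 3 choices of the hours. Filled points had R squared over 0.6 and open points did not, and background was not subtracted. With the hours of the labels the decay half-life of Hnrnpk is 7.45 h at D0 and 2.79 h at D6, and that of Hnrnpd is 4.94 h and 5.63 h.

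Of the 10 genes, 5 have more than 1 interval. The 1254-base interval of Hnrnpk is nested in the 1311-base lead interval (chr13:58391132-58392442, minus strand) and held the same reads in every library, so that it was no second measurement. The 14-base interval of Hnrnpa1 had 0 reads in all 47 libraries. For the others, shares were compared between unlabeled D0 and D6 libraries by a two-sided exact permutation test of 3 against 3, whose smallest p is 0.1.

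The lead interval of Hnrnpa3 has 4010 bases (chr2:75665398-75669407, plus strand), and a second interval covers its last 1407 bases. This distal part held 34.1, 49.1 and 74% of the lead reads at D0 and 69.3, 98.5 and 53% at D6. The ranges overlap, and the difference of 21.2 percentage points had an exact p = 0.4 (adjusted 0.533 over 4 intervals). It ran from 8.77 (without D6 replicate 38) to 32 points (without D0 replicate 57) with 1 library left out, with 12.1 without D0 replicate 55, and it was 38.9 points in the libraries labeled for 15 h (exact p = 0.2). In GENCODE, 8.13% of the 50-base windows of this 3′ UTR also occur on the same strand in other genes, mostly Gm5641 and Gm6793, and 0 of its last 300 bases do, so that part of the proximal reads is uncertain.

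A 15-base interval of Hnrnpa3, which comes before the lead interval, took 35, 1.75 and 21.9% of the reads of the pair at D0 and 4.27, 11.3 and 10.6% at D6 (exact p = 0.4, adjusted 0.533). A 21-base interval of Hnrnpa2b1 took 0.926, 84.8 and 11.6% at D0 and 0% in all 3 libraries at D6. The groups did not overlap, at the smallest p the exact test allows, 0.1 (adjusted 0.4). The lead interval had 54, 57 and 433 reads in these D6 libraries. The lowest D0 share, 0.926%, was 7 reads beside 749 on the lead interval, so that a share of that size could go unseen at the D6 depth. In the libraries labeled for 15 h the groups overlapped, with a mean of 14.2% at D0 and 8.72% at D6 (exact p = 1). The share of 84.8% is from replicate 56, where the lead interval of Hnrnpa2b1 had 21 reads and the 21-base interval 117, and without it the difference moved from -32.4 to -6.28 percentage points. The 30-base interval of Hnrnpd held 0.779, 0 and 0.496% at D0 and 0, 1.04 and 0.0432% at D6 (exact p = 1).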

How the data were processed

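Per the labels and the methods of the study, RNA of P19 cells was sequenced from 3′ ends (QuantSeq FWD) and mapped to mm10 with SLAMdunk 0.3.3. For each 3′ UTR interval the authors deposited counts of reads, covered T positions, T>C conversions and labeled reads, a conversion rate as a fraction, and CPM. Of these, only the deposited counts were used here. The strand setting, and whether libraries were processed in batches, are not given in the sources used here. Each file has 39419 rows, of which 29719 are mRNA and 99.5% of these were paired with a symbol. Rows with the same coordinates were counted once. RPM are reads per 1000000 reads on distinct mRNA intervals.

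Reads were tested in R 4.3.3 with edgeR 4.0.16 (TMM, its filter on low counts, quasi-likelihood test). Conversions were tested with edgeR, with the log of covered T positions times the rate of the library as offset, on intervals covering on average 1000 or more T positions per library. P-values were adjusted over all intervals tested (Benjamini-Hochberg, threshold 0.05). Alternatives were DESeq2 1.42.0, upper quartile scaling, limma 3.58.1 after subtraction of background, other filters, and omission of each library. Half-lives of up to 5000 min were fitted with scipy 1.17.1 in Python 3.11.15 and carry no test. Fits were tested on simulated data, where the direction and approximate size of added changes were recovered, but few of those in reads and none of those in the difference in label left passed the threshold, so that the lack of a call does not show that values were alike. The members and lists were chosen with earlier results of these data known. All members were named, with the 3 smallest p in each direction among other hnRNP genes, of which 1 is not reported here, and the 2 marker genes with most reads per list.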

Additional observations from a re-analysis of the deposited data

How the results depend on the processing

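Without 4sU, 0 members were called between D6 and D0 with edgeR, 2 with DESeq2, 1 with upper quartile scaling and 0 to 1 with 1 library left out. In sets that hold labeled libraries too, 7 were called with all 47, 5 with the anabolic, 6 with the catabolic libraries and 7 without the 2 D0 libraries of lowest 3′ UTR share (6, 5, 5 and 6 without Hnrnpf). Of all intervals, 20.4% were called higher and 28% lower with all 47, and 17% and 19.5% with the anabolic libraries. With the catabolic libraries the shares were 14.7% and 17.1%, and without the 2 libraries 21.3% and 26.5%. The anabolic, the catabolic and the last set were chosen after seeing the data. The log2 for Hnrnpd turned to -0.40, -0.53 (catabolic) and -0.35 (without the 2 libraries); the cause was not tested. Over all intervals the count was 1351, and 2116 with DESeq2, 6513 with all libraries, 4649 with the anabolic, 4062 with the catabolic and 6436 without the 2 libraries. For 15 h of 4sU at D6, DESeq2 and no filter called 1 member each (1 interval in all, and 180 and 40). At D0, DESeq2 called 2 intervals.

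Not relative to the library, 7 members were called lower at D0, 1 of them Hnrnpf with 0 conversions at 9 h, and 6 at D6, and 6 had more at D6 after 15 h. By its construction this setting keeps the label of the whole library, and turned Hnrnpc (-1.36) and Hnrnpk (-1.53) at D0, Hnrnpa0 (-2.32), Hnrnpc (-2.20) and Hnrnpu (-2.17) at D6, and Hnrnpa0 (1.51), Hnrnpc (1.69), Hnrnpd (1.49) and Hnrnpu (1.62) after 15 h; for uptake at D6 Hnrnpa0 turned to -0.21. With limma on background-subtracted rates, 1 of 6 members was called at D0, Hnrnpa0 (-0.98), beside 281 of 938 intervals. With 1 library left out, 0 to 1 members were called at D6. All-interval counts at 9 h of chase were 312 at D0 (2966 not relative, 1064 DESeq2, 142 slope) and 278 at D6 (4418, 909, limma 157), 5 for their difference (33, 209, slope 2), and 8 after 15 h (813, 44, limma 0). For uptake they were 0, 1 and 0, with 81, 81 and 85 for DESeq2, 5 and 5 not relative for the states, and 0 at D6 with limma or at least 10000 covered T positions. With 1 library left out, the all-interval counts ran from 778 (D6 replicate 37) to 1448 for D6 against D0 without 4sU, where omission of D6 replicate 38 or 39 gave 875 and 841, and from 0 to 3 for 15 h of 4sU at D6. They ran from 171 (D0 replicate 35) to 621 (D6 replicate 14) for the chase at D0, from 115 (D6 replicate 07) to 500 (D6 replicate 15) at D6, from 0 to 37 (D6 replicate 16) for their difference and from 0 to 11 after 15 h. For uptake they ran from 0 to 5 at D0, from 0 to 66 (D6 replicate 52) at D6 and from 0 to 34 (the same library) for the difference. Over these comparisons 7, 11 and 14 of 23 omissions moved the chase counts by over 1.5 times.

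Decay half-lives in both states were kept for 1 member, 6 with the hours of the labels, 8 with 0 and 9 h, and 0 to 3 with 1 library left out; for synthesis 3, 6, 6 and 1 to 3. Of 1992 alternative values of lead intervals in tests, 134 had the other sign, 13 of them past the threshold in either fit or larger than 1 SE in both, and 42 passed the threshold only in the alternative. No paired analysis was possible because no replicate number is shared between groups. Depth limits Hnrnpa1, Hnrnpa2b1, Hnrnpa3 and Hnrnpf, whose SE in the unlabeled test was 0.48 to 2.02.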

Other observations

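Among the other hnRNP genes, Hnrnpdl, a close relative of Hnrnpd, was chosen for mention after its values were seen. Relative to all 3′ UTRs it kept less label after 9 h of chase at D0 (log2 -1.62, SE 0.41, edgeR adjusted p = 0.0228), where Hnrnpd among the members stood at -0.64 (SE 0.34, adjusted p = 0.288), and at D6 its log2 was -0.61 (SE 0.40, adjusted p = 0.441). Of 16 such genes tested, 1 was called lower and 1 higher at D0, where 2.11% of all intervals were called lower and 1.07% higher, and 0 were called lower and 1 higher at D6 (1.73% and 1.1%).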
